A study of Mus musculus with 39 samples.

Results

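The Ifitm family was followed in microglia of wildtype (WT) and 5XFAD mice kept in normoxia (NX) or chronic intermittent hypoxia (CIH). Its 4 members, Ifitm1, Ifitm2, Ifitm3 and Ifitm6, were taken by symbol, as 4 of 46333 genes in the table of the females and 4 of 54532 in the table of the males. There were 39 bulk mRNA libraries, 19 from females and 20 from males. Female WT NX had 4 libraries, and each of the other 7 combinations of sex, genotype and treatment had 5. The study's methods give 5 samples for every combination and name a female normoxia sample as an outlier in several comparisons. Which sample that was, and whether it is among these libraries, is not given in the sources used here. Females were 10 months old and males 8 months old. Exposure began at 4 months of age in all groups. NX mice breathed 21% O2 throughout. For CIH mice, the series description gives 6.5% and 21% O2 in intervals of 90 seconds during 8 hours of the sleep phase, and the study's methods give a slightly lower trough and a longer daily exposure. In the breeding described in the study's methods, B6SJL 5XFAD males were mated to C57BL/6J WT females, and it is not given whether the sequenced WT mice were offspring of these matings. 5XFAD mice carry human transgenes with familial Alzheimer's disease mutations, driven by the Thy1 promoter, which is active in neurons. Microglia were pulled from the cerebrum with CD11b beads, which also bind neutrophils, monocytes and border macrophages. Sex, age and length of exposure differ together between the tables and cannot be told apart.

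IFITM proteins are small membrane proteins that sit in the plasma membrane and in endosomes and hinder the fusion of enveloped viruses with the cell. Ifitm1, Ifitm2 and Ifitm3 are classical interferon-induced genes, while Ifitm6 is a rodent member known mainly from myeloid cells of blood and bone marrow. Ifitm3 is also known as a protein that binds gamma-secretase, the protease that releases amyloid beta from APP, and as a gene of interferon-responsive microglia in amyloid models.

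On GRCm38 the 4 genes lie within 63.1 kb of chromosome 7. Ifitm2 is at chr7:140954837-140955987 on the minus strand, Ifitm1 at chr7:140967221-140969825 on the plus strand, Ifitm3 at chr7:141009586-141010770 on the minus strand and Ifitm6 at chr7:141015699-141017924 on the minus strand. The gaps between them are 11.2, 39.8 and 4.9 kb. The longest transcripts of Ifitm2 and Ifitm3 have 2 exons and those of Ifitm1 and Ifitm6 have 3. Because IFITM copies resemble each other, the longest transcript of each gene was compared with the transcripts of all other genes in windows of 50 bases. Ifitm6 shared 0 of 764 windows with another gene, Ifitm1 53 of 833 and Ifitm3 63 of 629. Ifitm2 shared 294 of 606, of which 20 were shared with Ifitm3 and the others with Gm45717, a gene model that overlaps it, and with predicted genes elsewhere. By this measure counts of Ifitm2 may be the least certain of the 4 members, as the counting of reads with several matches is not given in the sources used here. The study's methods give paired reads longer than these windows, so that a shared window need not make a read ambiguous. Gm45717 had at most 0 counts in any male library.

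The stretches around the start sites are shown because the family is named for its induction by interferon, and its members differ in whether the motifs of that pathway occur there. They run from 100 bases before to 30 bases after 1 start site of each gene in RefSeq (GRCm38.p6), in the direction of transcription. For Ifitm1 and Ifitm6 these start sites lie inside the gene spans given above, and the outer starts were not searched. Capitals mark matches to the ISRE core, GAAANNGAAA, an element known from the promoters of genes induced by type I interferon.
Ifitm2, chr7:140955932-140956061, minus strand: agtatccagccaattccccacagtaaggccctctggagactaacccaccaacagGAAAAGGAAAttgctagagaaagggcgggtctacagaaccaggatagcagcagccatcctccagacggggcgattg
Ifitm3, chr7:141010715-141010844, minus strand: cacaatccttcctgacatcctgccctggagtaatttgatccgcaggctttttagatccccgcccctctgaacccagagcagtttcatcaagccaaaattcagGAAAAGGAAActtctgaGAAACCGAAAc
Ifitm1, chr7:140967976-140968105, plus strand: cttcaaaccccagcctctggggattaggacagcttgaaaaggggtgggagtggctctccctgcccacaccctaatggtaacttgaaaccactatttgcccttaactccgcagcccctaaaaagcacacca
Ifitm6, chr7:141016863-141016992, minus strand: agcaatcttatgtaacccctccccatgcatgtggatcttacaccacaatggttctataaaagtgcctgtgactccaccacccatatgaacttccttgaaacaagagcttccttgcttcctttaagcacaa
In the whole window of 300 bases, from 250 before to 50 after the start and on both strands, Ifitm3 held 2 matches to the ISRE core and Ifitm2 held 1. The windows of Ifitm1 and Ifitm6 at these inner starts held none. The core was found in 1131 of 32851 mouse promoter windows of this length (3.44%), and 74 windows (0.225%) held it at least 2 times. The GAS motif TTCNNNGAA, known from genes induced by interferon gamma, was found in 2726 windows (8.30%), among them those of Ifitm6 and Ifitm3. In Ifitm3 it overlapped the second ISRE match.

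Libraries held 14731683 to 25906121 counts in females and 13457293 to 23095627 in males. Homeostatic microglia genes (12 genes, among them P2ry12 and Tmem119) summed to 29050 to 41360 CPM (counts scaled to a common library size) in females and 28260 to 47130 in males, and lymphocyte genes (14) to at most 52.5. Choroid and ependymal genes (10) summed to at most 1934 CPM, astrocyte genes (8) to 1011 and oligodendrocyte genes (8) to 599.7. The choroid and ependymal median was 736.6 CPM in female WT NX and 97.3 in female 5XFAD NX, and 1043 and 730 in the same groups of males. A pair of female libraries stood apart in disease-associated microglia (DAM) genes, a set that rises around plaques. The library labelled F 5XFAD NX 4 went against its label, with a DAM sum of 587 CPM against 5623 to 14040 in the other 4 of its group, and all 12 DAM genes were below the other 4. F WT NX 1 had a DAM sum of 4068 CPM, against 337 to 532 in the other 3 of its group, and this came from Spp1 (2562 CPM) and Gpnmb (760.3 CPM), which reached the range of the other 5XFAD NX libraries. Its other 10 DAM genes were below that range, among them Cst7 (17.3 CPM, against 1151 to 2456) and Dkk2 (0.331 CPM, against 36.6 to 109.6). These 2 libraries were also highest of their groups in neutrophil genes (282 and 308 CPM summed over 15 genes). The members' levels per length, fits and correlations in female NX groups, and the counts of their pathway's genes, are therefore also given without them, a choice made after seeing the data. In these bulk samples, fewer cells of a type and less RNA per cell cannot be told apart.

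Ifitm3 was the main family transcript in every group. Per length, by the deposited FPKM, its mean in WT females was 42.2 ± 22.3 under NX (SD, n = 4) and 29.2 ± 9.25 under CIH (SD, n = 5), and in 5XFAD females 110.8 ± 60.7 and 102.1 ± 20.5 (SD, n = 5 each). WT males averaged 67.7 ± 30.4 under NX and 28.3 ± 4.77 under CIH, and 5XFAD males 180.6 ± 82.7 and 184.2 ± 71.2 (SD, n = 5 each). Its share of the summed family FPKM under NX and CIH was 69.1% and 71.8% in WT females and 86.6% and 83.8% in 5XFAD females. In males it was 70.5% and 70.9% in WT and 83.2% and 85.0% in 5XFAD. Ifitm2 came second in every group, with 16.8% and 15.3% in WT females and 10.4% and 13.7% in 5XFAD females, and with 16.6% and 17.6% in WT males and 11.7% and 13.2% in 5XFAD males. Ifitm6 made up 6.17% and 10.02% in WT females and 2.16% and 1.71% in 5XFAD females, and 11.2% and 8.78% in WT males and 3.89% and 1.33% in 5XFAD males. Ifitm1 made up 0.730% to 7.97% in females, with the highest share, in WT NX, from F WT NX 1, and 0.478% to 2.74% in males. Without F WT NX 1 the Ifitm3 mean of female WT NX was 32.9 ± 14.8 FPKM (SD, n = 3), with family shares of 77.1% for Ifitm3, 13.2% for Ifitm2, 7.29% for Ifitm6 and 2.41% for Ifitm1. Without F 5XFAD NX 4 that of female 5XFAD NX was 131.1 ± 46.6 FPKM (SD, n = 4), with shares of 88.2%, 10.4%, 0.846% and 0.496%. FPKM and these shares are to be read within a table, since the tables used different gene lengths (Ifitm2, for example, 655 bases in the male table).

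**Figure D1:**
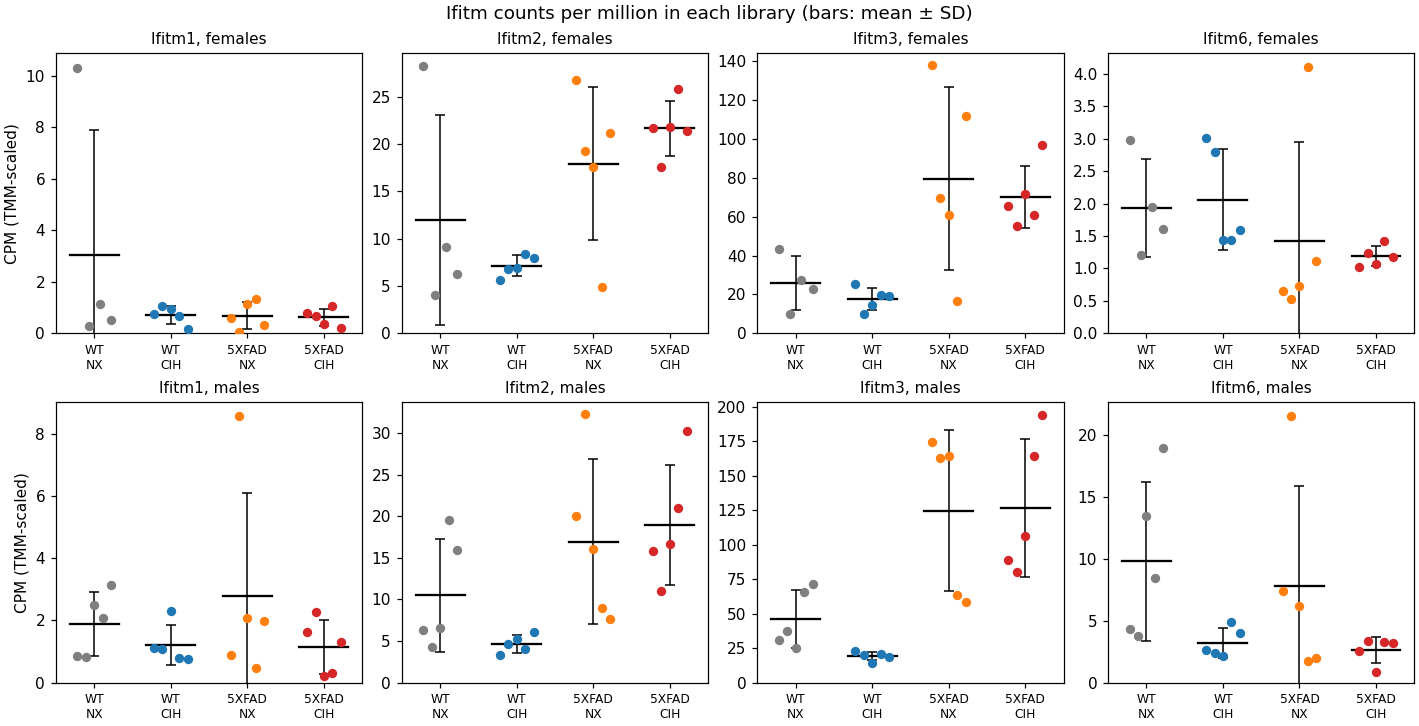
Each point is 1 library, in CPM within its sex (y axis, linear from 0, with its own range in each panel), grouped by genotype and treatment (x axis). Horizontal bars are group means and error bars ± SD, not drawn below 0. In males all 5 WT CIH libraries had less Ifitm3 (14.4 to 22.9 CPM) than the lowest WT NX library (25.5 CPM), and in both sexes Ifitm3 and Ifitm2 of 5XFAD CIH lay above WT CIH.

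The 5XFAD genotype went with more Ifitm3 and Ifitm2. Both were called in both sexes under CIH, while under NX edgeR called Ifitm3 in males over all libraries. In females under NX it called Ifitm3 and Ifitm2 without the 2 outlying libraries, a removal that had to enlarge both rises. Ifitm1 was not called, nor was Ifitm6 over all libraries. A gene was called where edgeR's quasi-likelihood test gave a Benjamini-Hochberg adjusted p below 0.05 and an absolute log2 fold change above 1. Under CIH, Ifitm3 of the female libraries read 25.3, 9.81, 14.7, 19.7 and 19.2 CPM in WT and 65.5, 55.4, 71.9, 61.2 and 96.9 CPM in 5XFAD. Ifitm3 of the male libraries read 22.9, 20.02, 14.4, 21.0 and 18.7 CPM in WT and 89.1, 79.9, 106.5, 164.0 and 194.1 CPM in 5XFAD. Every 5XFAD CIH library lay above every WT CIH library in both sexes. The fit gave a log2 fold change of 2.00 ± 0.211 (SE; adjusted p = 4.55e-06) in females, 3.99-fold, and of 2.71 ± 0.232 (SE; adjusted p = 3.90e-07) in males, 6.56-fold.

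Ifitm2 had the same order. Under CIH it read 5.63, 6.78, 6.91, 8.38 and 7.99 CPM in female WT and 21.7, 17.6, 21.8, 25.8 and 21.4 CPM in female 5XFAD. Males had 3.32, 4.63, 5.26, 4.00 and 6.11 CPM in WT CIH and 15.8, 11.04, 16.6, 21.0 and 30.2 CPM in 5XFAD CIH. Again the groups did not overlap in either sex. The log2 fold change was 1.61 ± 0.125 (SE; adjusted p = 2.73e-07) in females and 2.03 ± 0.247 (SE; adjusted p = 1.24e-05) in males. Over all genes tested in this comparison, 12.96% were called in females and 18.7% in males, so that a gene called between these groups was not rare. An adjusted p below 0.05 by edgeR was reached by 7739 of 14911 genes in females and 7248 of 14793 in males. How many of all genes had groups without overlap was not counted in any comparison, so that lack of overlap does not set these members apart. The calls of Ifitm2 and Ifitm3 held in each sex when any 1 library was left out. Other genes that mark cell states moved with the genotype as well: DAM sums were 255 to 412 CPM in the WT CIH libraries of both sexes and 6686 to 16020 CPM in 5XFAD CIH, and sums of 10 border macrophage genes were 1245 to 1854 CPM in WT CIH and 456 to 869 CPM in 5XFAD CIH. Their part in the result was not tested.

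Ifitm6 and Ifitm1 were not called between genotypes under CIH. Ifitm6 of the female libraries read 3.01, 2.79, 1.44, 1.44 and 1.60 CPM in WT and 1.03, 1.24, 1.07, 1.42 and 1.18 CPM in 5XFAD, so that all 5XFAD libraries were below all WT libraries. Its log2 fold change was -0.77 ± 0.281 (SE; adjusted p = 0.0342), under the fold threshold. The female neutrophil sums were 59.4 to 137.9 CPM in WT CIH and 27.7 to 93.5 CPM in 5XFAD CIH, and their part was not tested. In males Ifitm6 had -0.27 ± 0.374 (SE; adjusted p = 0.575). Ifitm1 had -0.20 ± 0.508 in females and -0.07 ± 0.588 in males (SE).

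Under NX the groups were less tight. In male 5XFAD NX, Ifitm3 read 174.4, 162.5, 164.2, 63.4 and 58.6 CPM, and in male WT NX 31.0, 37.5, 25.5, 66.0 and 71.6 CPM. The 2 lowest 5XFAD libraries fell below the 2 highest WT libraries, and the other 3 were above all WT libraries. Ifitm3 rose by 1.43 ± 0.374 on the log2 scale (SE; adjusted p = 0.0181) and was the only member called, with 8.25% of all genes called. Its adjusted p was 0.0511 without M WT NX 2. Ifitm2, at 6.30, 4.30, 6.52, 19.6 and 15.9 CPM in male WT NX and 19.97, 32.2, 16.0, 8.92 and 7.60 CPM in male 5XFAD NX, had a log2 fold change of 0.69 ± 0.466 (SE; adjusted p = 0.367). Libraries 4 and 5 of each group were thus the 2 of their group nearest to the other genotype in both genes. Their DAM sums stayed far from the other genotype, at 345 and 463 CPM in WT and 8172 and 7516 CPM in 5XFAD. The other libraries had 318 to 360 CPM in WT and 9109 to 10900 CPM in 5XFAD. Sums of 38 antiviral interferon-stimulated genes were 902 and 920 CPM in these WT libraries, against 691 to 817 in the others. In 5XFAD they were 1710 and 1579 CPM, against 1783 to 1962.

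In female NX mice no member was called (background 5.99% of genes), with 1 of 4 at an unadjusted p below 0.05. Ifitm3 read 43.4, 10.1, 27.4 and 22.9 CPM in WT and 138.0, 69.9, 60.7, 16.6 and 112.1 CPM in 5XFAD, and the single 5XFAD library inside the WT range was F 5XFAD NX 4. Its log2 fold change was 1.61 ± 0.564 (SE; adjusted p = 0.0794), and DESeq2 called it at an adjusted p of 0.0388. Ifitm2 read 28.3, 3.99, 9.16 and 6.32 CPM in WT and 26.8, 19.2, 17.5, 4.94 and 21.1 CPM in 5XFAD, and here F WT NX 1 was above every 5XFAD library. Its log2 fold change was 0.57 ± 0.585 (SE; adjusted p = 0.513), that of Ifitm6 -0.43 ± 0.613 (SE; adjusted p = 0.642) and that of Ifitm1 -2.15 ± 1.04 (SE; adjusted p = 0.175). Without F WT NX 1 and F 5XFAD NX 4, the log2 fold change was 2.23 ± 0.369 (SE; adjusted p = 0.00107) for Ifitm3 and 1.69 ± 0.255 (SE; adjusted p = 6.28e-04) for Ifitm2. Both genes were then called, and 2072 genes in all in place of 869. In both genes F WT NX 1 was the highest WT NX library and F 5XFAD NX 4 the lowest 5XFAD NX library. Both rises therefore had to grow without them, and these calls are not separate support. The log2 fold changes of Ifitm3 and Ifitm2 were then above those of the female CIH comparison (2.00 and 1.61). With those libraries left out Ifitm6 was called lower in 5XFAD, at -1.08 ± 0.341 (SE; adjusted p = 0.0271). F 5XFAD NX 4 had the highest Ifitm6 of its group (4.11 CPM). In that fit 0 of 10 tested neutrophil genes had a positive value and 1 was called lower, with a median of -0.58. Of 7 tested monocyte genes 2 were positive and 2 called lower, with a median of -0.55. The part of these cells was not tested. Ifitm1 did not pass the count filter in that fit, and had 0.11 ± 0.774 (SE) without F WT NX 1 alone.

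**Figure D2:**
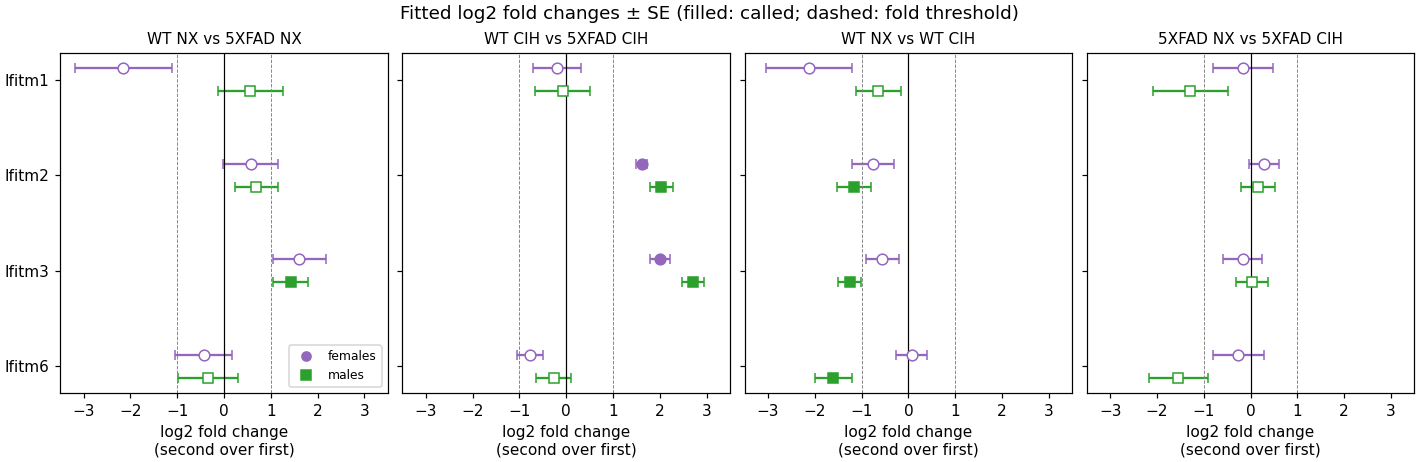
Fitted log2 fold changes (x axis, second group over first) with ± SE bars for the 4 members (y axis) in 4 comparisons (panels), females as circles and males as squares. Filled symbols passed both the adjusted p and the fold threshold, and dashed lines mark the fold threshold. Ifitm2 and Ifitm3 were filled in both sexes for genotype under CIH, and Ifitm2, Ifitm3 and Ifitm6 in males for CIH in WT.

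CIH went with less Ifitm3, Ifitm2 and Ifitm6 in WT males and with no called member in WT females or in 5XFAD mice of either sex. The study names Ifitm genes from this male contrast, so that the calls in it are not independent evidence. Ifitm3 of WT males read 31.0, 37.5, 25.5, 66.0 and 71.6 CPM under NX and 22.9, 20.02, 14.4, 21.0 and 18.7 CPM under CIH, without overlap. It fell by 1.25 ± 0.244 on the log2 scale (SE; adjusted p = 0.00181), to 0.421 of the NX level. Ifitm2 fell by 1.17 ± 0.358 (SE; adjusted p = 0.0234), and 2 of its 5 CIH libraries lay below all NX libraries. Ifitm6 read 4.37, 3.76, 13.4, 8.46 and 18.9 CPM under NX and 2.63, 2.37, 2.12, 4.89 and 4.04 CPM under CIH, and 3 of the 5 CIH libraries lay below all NX libraries. Its log2 fold change was -1.60 ± 0.401 (SE; adjusted p = 0.00785). Ifitm1 had -0.64 ± 0.485 (SE; adjusted p = 0.346). Of all genes tested in WT males, 2.51% were called, and the share of genes without overlap was not counted.

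These 3 calls were not kept in every fit. With all 4 male groups in one fit the sizes stayed near the same but the adjusted p rose to 0.0594 for Ifitm3, 0.0842 for Ifitm2 and 0.0847 for Ifitm6, and 0 genes were called in place of 376. The call of Ifitm3 held when any 1 library was left out, and so did that of Ifitm6. Ifitm2 lost its call without M WT NX 4 (adjusted p = 0.0835), without M WT NX 5 (0.0694) or without M WT CIH 4 (0.0546). Endothelial genes were also high where Ifitm3 and Ifitm2 were highest in WT NX, with sums of 274 and 269 CPM in M WT NX 4 and 5 and of 69.1 to 194 CPM in the other 3. Of 12 endothelial genes 1 had a positive value with CIH in WT males and none was called, with a median of -0.71, and of 7 tested mural and fibroblast genes 1 was positive and none called, with a median of -0.63. Their part in the falls of Ifitm3 and Ifitm2 was not tested.

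In WT females none of 14583 genes was called by edgeR between NX and CIH (0%), with 565 at an unadjusted p below 0.05 and 0 called by DESeq2. Ifitm3 read 43.4, 10.1, 27.4 and 22.9 CPM under NX and 25.3, 9.81, 14.7, 19.7 and 19.2 CPM under CIH, and these ranges overlapped. Its log2 fold change was -0.56 ± 0.349 (SE; adjusted p = 0.960), and -0.18 ± 0.314 without F WT NX 1. Ifitm2 went from -0.76 ± 0.453 to 0.14 ± 0.238 and Ifitm1 from -2.13 ± 0.912 to 0.14 ± 0.582 when that library was left out (SE), so that the negative values of both came from it. Ifitm6 had 0.07 ± 0.335, or 0.37 ± 0.338 without that library (SE), and the CIH range of 1.44 to 3.01 CPM nearly matched the NX range of 1.22 to 2.98 CPM.

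In 5XFAD mice, edgeR called none of 14578 genes in females (0%; 470 at an unadjusted p below 0.05; 0 by DESeq2) and none of 14334 in males (0%; 473; 1 by DESeq2). Ifitm3 had log2 fold changes of -0.17 ± 0.417 in females and 0.02 ± 0.342 in males, and Ifitm2 of 0.28 ± 0.324 and 0.16 ± 0.371 (SE). Without F 5XFAD NX 4 the female values were -0.43 ± 0.228 for Ifitm3 and 0.04 ± 0.134 for Ifitm2, and that of Ifitm6 went from -0.26 ± 0.539 to 0.66 ± 0.288 (SE), with no member called. Ifitm1 had -0.16 ± 0.650 (SE) in females and no value without that library, as it did not pass the count filter. Male 5XFAD Ifitm6 had -1.55 ± 0.632 (SE), with an unadjusted p of 0.0299 and an adjusted p of 0.995, and -0.69 without M 5XFAD NX 2, the library with the highest neutrophil sum (1486 CPM). It read 7.41, 21.5, 6.19, 1.73 and 1.97 CPM under NX and 2.55, 3.33, 0.824, 3.26 and 3.24 CPM under CIH. The ranges overlapped, with 3 NX libraries above and 1 CIH library below all libraries of the other group.

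Whether CIH acted differently in the 2 genotypes was tested as an interaction. None of the 4 members was called in either sex, and none of all genes (0% in females and 0% in males). At an unadjusted p below 0.05 there were 589 genes in females and 3857 in males, and DESeq2 called 0 and 381. In males the interaction was 1.28 ± 0.467 for Ifitm3 (SE; adjusted p = 0.129) and 1.33 ± 0.566 for Ifitm2 (SE; adjusted p = 0.165), in the sense of a larger 5XFAD increase under CIH than under NX. Ifitm6 had 0.06 ± 0.800 (SE) in males. With no filter on low counts, edgeR called both genes in males (adjusted p = 2.22e-04 for Ifitm3 and 0.00713 for Ifitm2) among 790 genes. Female values were 0.37 ± 0.604 for Ifitm3 and 1.03 ± 0.601 for Ifitm2 (SE). They were -0.26 ± 0.430 and -0.10 ± 0.274 (SE) without F WT NX 1 and F 5XFAD NX 4, so that both turned in sign. Ifitm1 went from 1.94 ± 1.21 to 0.08 ± 0.908 and Ifitm6 from -0.35 ± 0.669 to 0.28 ± 0.434 (SE) in the same way.

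No member was called when the effect of 1 contrast was compared between the tables, males minus females. The genotype effect under CIH differed by 0.72 ± 0.335 for Ifitm3 (SE; adjusted p = 0.154), where 1.45% of genes were called. Under NX it differed by -0.18 ± 0.674 (SE), where 0.00694% were called, and by -0.82 ± 0.583 (SE) without F WT NX 1 and F 5XFAD NX 4. In the same comparison Ifitm1 went from 2.69 ± 1.28 to 0.84 ± 1.14, Ifitm2 from 0.12 ± 0.773 to -1.01 ± 0.648 and Ifitm6 from 0.10 ± 0.941 to 0.72 ± 0.950 (SE) without these libraries. The CIH effect in WT differed by -1.66 ± 0.584 for Ifitm6 (SE; adjusted p = 0.0574), with 1.26% of genes called. The likelihood ratio test and DESeq2 called this difference (adjusted p = 0.0369 and 0.0245), and so did edgeR without F WT NX 1 (-1.95; adjusted p = 0.0379), M WT NX 1 (adjusted p = 0.0242), M WT NX 2 (adjusted p = 0.0228) or M WT CIH 4 (adjusted p = 0.0476). It was -0.84 ± 0.519 (SE; adjusted p = 0.311) without M WT NX 3 and 5, the WT NX males with the highest neutrophil sums. Ifitm3 had -0.68 ± 0.456 (SE; adjusted p = 0.339) in the same comparison, and -1.05 ± 0.437 (SE; adjusted p = 0.114) without F WT NX 1. Leaving out that library took Ifitm2 from -0.41 ± 0.619 to -1.29 ± 0.506 (SE; adjusted p = 0.0921) and Ifitm1 from 1.47 ± 1.04 to -0.79 ± 0.798 (SE). In 5XFAD mice the CIH effect differed for no gene by edgeR (0%; 621 at an unadjusted p below 0.05; 3 by DESeq2), and by 0.23 ± 0.565 for Ifitm3 (SE), or 0.48 ± 0.455 without F 5XFAD NX 4. Without that library Ifitm6 went from -1.25 ± 0.873 to -2.17 ± 0.802, Ifitm2 from -0.09 ± 0.516 to 0.15 ± 0.433 and Ifitm1 from -1.09 ± 1.10 to -1.49 ± 1.13 (SE), none of them called.

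Ifitm6 went with neutrophil and monocyte genes from library to library. The neutrophil list had 15 genes, led by the calprotectin subunits S100a8 and S100a9 and the granule genes Ngp, Ltf and Camp. In males the highest Ifitm6 was in M 5XFAD NX 2 (21.5 CPM), M WT NX 5 (18.9 CPM) and M WT NX 3 (13.4 CPM), and these had neutrophil sums of 1486, 1382 and 960 CPM. The other 17 male libraries had sums of 66.0 to 486 CPM. Over the 20 male libraries Pearson's r between Ifitm6 and the neutrophil sum, both as log2, was 0.959, and 0.947 after group means were taken off. Over the 19 female libraries it was 0.827 and 0.801, and 0.716 and 0.407 over the 17 without F WT NX 1 and F 5XFAD NX 4. The monocyte sum gave 0.872 and 0.826 in males, 0.793 and 0.753 in females, and 0.738 and 0.504 in the 17 female libraries. These correlations are descriptions, since the libraries share the sort and the scaling.

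Male WT mice had neutrophil sums of 276 to 1382 CPM under NX and 129 to 374 CPM under CIH, so that the marker level fell together with Ifitm6. Of the 15 genes, 8 were called lower with CIH and none higher, with a median log2 fold change of -1.43 against -0.0134 over all genes. S100a9 had -1.81 ± 0.389 (SE; adjusted p = 0.00311) and S100a8 -1.69 ± 0.433 (SE; adjusted p = 0.00897). Of 10 monocyte genes, 9 were tested and 5 called lower, among them Ly6c2 at -1.55 ± 0.394 (SE; adjusted p = 0.00876). Set against 1000 CPM of the neutrophil list, Ifitm6 stood at 13.6 to 17.4 CPM in male WT NX and at 13.1 to 17.2 CPM in male WT CIH. The ratio of Ifitm6 to the list was thus nearly the same in these groups, while both of its terms fell. It was less even elsewhere, at 14.1 to 35.4 CPM in male 5XFAD NX, 12.5 to 23.2 CPM in male 5XFAD CIH and 10.3 to 42.6 CPM over the 4 female groups. M WT NX 3 and 5 were the WT NX males highest in the neutrophil sum and in Ifitm6, so that the fall of Ifitm6 had to shrink without them. A fit without these 2, a choice made after seeing the data, gave -0.78 ± 0.361 for Ifitm6 (SE; adjusted p = 0.152) and -1.11 ± 0.397 for Ifitm2 (SE; adjusted p = 0.0703), neither of them called. Ifitm3 had -1.21 ± 0.215 (SE; adjusted p = 0.00471) and was called. Its lowest and highest WT NX libraries, M WT NX 3 (25.5 CPM) and M WT NX 5 (71.6 CPM), were the 2 left out. The Ifitm3 mean of that group could therefore move little, and the part of neutrophils in the fall of Ifitm3 was not tested.

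Ifitm1 was sparse, at 1 to 280 counts a library, and was highest in 2 libraries that also had high neutrophil sums. It read 10.3 CPM in F WT NX 1 against 0.289 to 1.13 CPM in the other 3 of that group, and 8.56 CPM in M 5XFAD NX 2 against 0.466 to 2.09 CPM in the other 4. M WT CIH 3 did not share this: its 2.31 CPM was the highest of male WT CIH and its neutrophil sum of 129 CPM the lowest. Its r with the neutrophil sum was 0.668 in females and 0.697 in males, and with the monocyte sum 0.703 and 0.746. In the 17 female libraries without F WT NX 1 and F 5XFAD NX 4 these were 0.466 and 0.426. No comparison called Ifitm1, and its log2 fold changes had SE of 0.485 to 1.04 in the 8 pairwise comparisons.

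**Figure D3:**
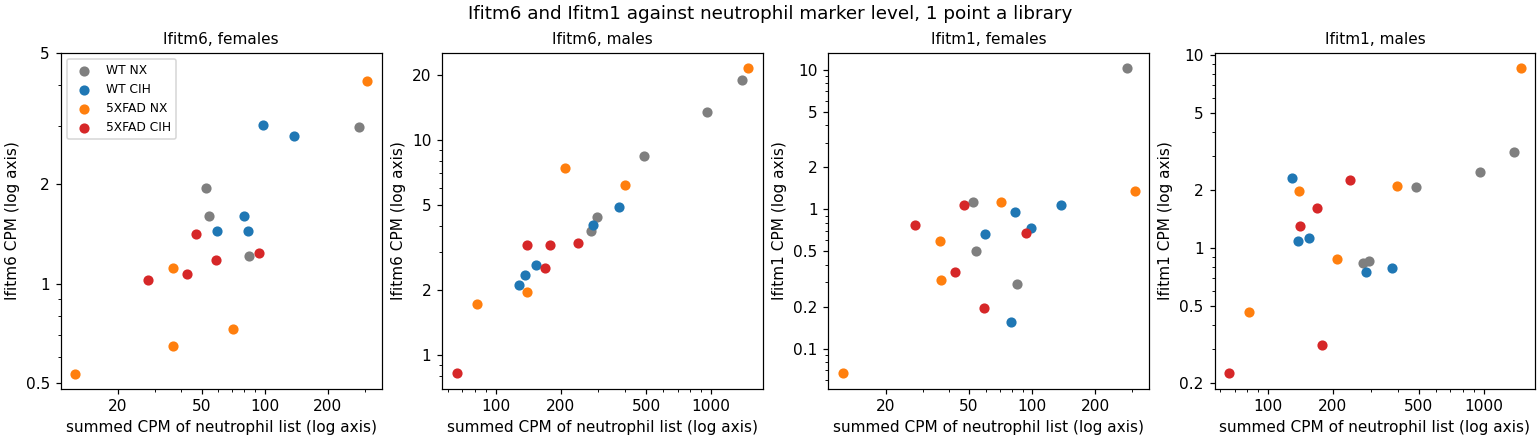
CPM of Ifitm6 and Ifitm1 (y axis, log) against the summed CPM of 15 neutrophil genes (x axis, log), 1 point a library, coloured by group, females and males in separate panels. In males Ifitm6 rose with the neutrophil sum across all 4 groups (r = 0.959 over 20 libraries), and the 3 points at upper right are M 5XFAD NX 2, M WT NX 5 and M WT NX 3.

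Ifitm3 rose and fell with antiviral and DAM genes. Its r with the mean level of 38 antiviral interferon-stimulated genes was 0.936 in females and 0.914 in males, and 0.850 and 0.811 after group means were taken off. With the neutrophil sum it was -0.540 and 0.0452, and -0.423 and 0.443 after group means were taken off. In males its r with Ifitm6 was 0.162, and 0.590 after group means were taken off. Ifitm2 had 0.536 with the neutrophil sum in males on that scale. Ifitm2 correlated with Ifitm3 at 0.901 in females and 0.908 in males, and with the antiviral mean at 0.767 and 0.787. With group means taken off, these were 0.828 and 0.794 for Ifitm3 and 0.563 and 0.694 for the antiviral mean. The DAM mean gave 0.939 and 0.860 for Ifitm3, and 0.870 and 0.574 after group means were taken off. For Ifitm2 the DAM mean gave 0.892 and 0.716, and 0.873 and 0.433. In the 17 female libraries without F WT NX 1 and F 5XFAD NX 4, Ifitm3 had 0.954 with the antiviral mean, 0.940 with the DAM mean and -0.634 with the neutrophil sum, and 0.744, 0.680 and -0.265 after group means were taken off. Ifitm2 there had 0.932 with Ifitm3, 0.863 with the antiviral mean and 0.956 with the DAM mean. With group means taken off, these 3 values were 0.603, 0.166 and 0.528, so that little of its link to the antiviral mean was within groups. The endothelial sum gave 0.843 in females (0.836 in the 17 libraries) and 0.655 in males for Ifitm3. In 5XFAD much of that sum was Flt1, a VEGF receptor, which averaged 15.2 CPM in female WT NX and 153.3 CPM in female 5XFAD NX and was called higher in all 4 genotype comparisons. Pecam1 was called lower in all 4, at 48.1 and 17.6 CPM in those groups, and 4 of the 12 endothelial genes had positive values in female NX mice, with a median of -0.96 (-0.26 without the 2 outlying libraries). Without Flt1 the endothelial sum gave -0.285 in females and 0.183 in males for Ifitm3, and 0.390 and 0.744 after group means were taken off. Its part was not tested.

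**Figure D4:**
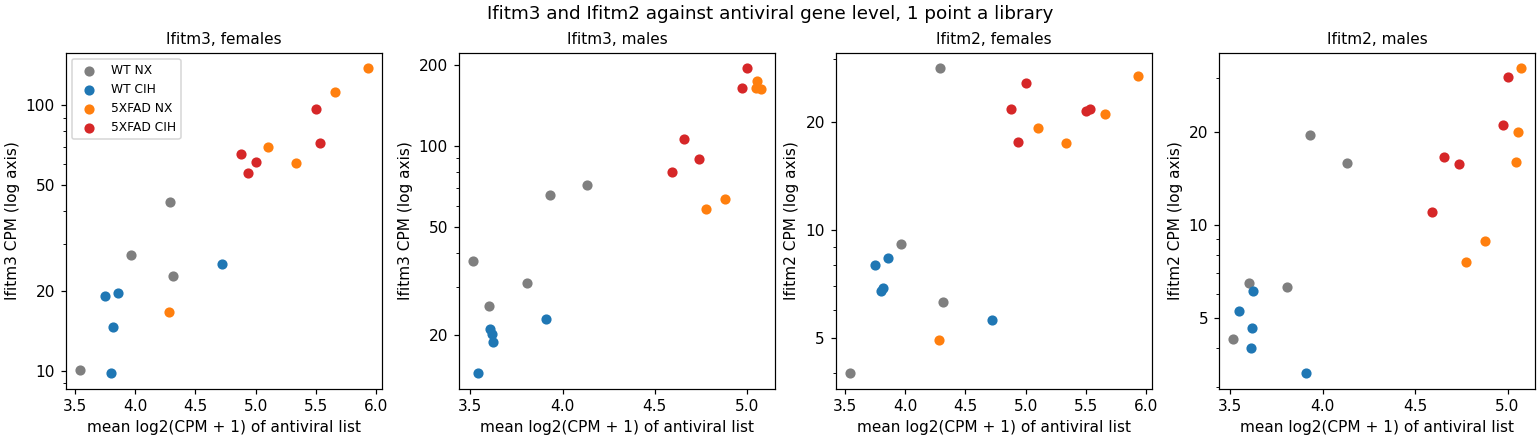
CPM of Ifitm3 and Ifitm2 (y axis, log) against the mean log2(CPM + 1) of 38 antiviral genes (x axis), 1 point a library, coloured by group. Ifitm3 rose with the antiviral mean in both sexes (r = 0.936 over 19 and 0.914 over 20 libraries), and in males the WT NX and WT CIH libraries overlapped in antiviral mean (3.52 to 4.13 and 3.54 to 3.91) but not in Ifitm3.

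Of 38 antiviral genes, 21 to 24 were called higher in 5XFAD in each genotype comparison, and 3 were called in any CIH comparison. All 38 were tested in each comparison. Under NX 21 were called higher in females and 21 in males, and under CIH 21 and 24, with none called lower. In female NX mice 26 were called higher, with a median of 1.51, without the 2 outlying libraries. Medians were 1.34 and 1.13 under NX and 1.19 and 1.28 under CIH, against -0.06 to 0.02 over all genes. Bst2 (tetherin, which holds virions at the cell surface), the most abundant of them in males, rose by 1.21 ± 0.117 in females and 1.93 ± 0.205 in males under CIH on the log2 scale (SE). Ifi27l2a rose by 3.21 ± 0.191 and 4.34 ± 0.313. In WT males under CIH, 3 of the 38 were called lower (Ifi27l2a at -1.20, Cxcl10 at -1.21 and Isg15 at -1.14) and none higher, with a median of -0.10 against -0.01 over all genes. In 5XFAD mice none was called with CIH, and the medians were -0.18 in females, with 3 of 38 values positive, and -0.20 in males, with 7 positive. Trim30a and Parp14, also among the most abundant, were called in none of the 8 pairwise comparisons.

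Upstream of them, the interferon ligands were near 0. The 9 ligand genes summed to at most 1.82 CPM in any library, and none was tested. Of 17 receptor and signalling genes, Irf7, a transcription factor that amplifies the interferon response, was called higher in 5XFAD in both sexes under both treatments, at 1.44 ± 0.295 in females and 1.95 ± 0.223 in males under CIH (SE). Stat2, a signal transducer of the type I receptor, was called higher in female 5XFAD NX mice at 1.09 ± 0.222 (SE; adjusted p = 0.0205) and at 1.21 ± 0.194 (SE; adjusted p = 8.67e-04) without the 2 outlying libraries. It had 0.94 ± 0.108 in male NX mice (SE; adjusted p = 6.03e-05), under the fold threshold. Its genotype effect under NX differed between the tables by -0.14 ± 0.242 (SE), and its interactions were -0.38 ± 0.264 in females and -0.47 ± 0.128 in males (SE), none of them called. Irf8, Ifngr1 and Irf5, the most abundant of the list, were called in none of the 8 pairwise comparisons. Usp18, which blocks the type I receptor and is itself interferon-induced, was the only one of 7 brakes called, at 1.97 ± 0.267 and 2.37 ± 0.172 under CIH (SE). Of 10 interferon gamma-inducible GTPases, 4 or 5 had positive values in each genotype comparison, with Tgtp2 called higher in all 4 and Gbp7 called lower in 3 of them, and in female NX mice too without the 2 outlying libraries. With CIH in 5XFAD mice none of the 10 values was positive in either sex and none was called, with medians of -0.44 in females and -0.27 in males. In WT mice 7 of the 10 were positive in each sex, with medians of 0.04 and 0.14 and none called. The interaction was positive for 0 of 10 in females and 1 of 10 in males, with medians of -0.50 and -0.44, and was called for none.

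Calls among genes for proteins that act on or with IFITM3 all fell in the male genotype comparison under CIH, where 18.7% of all genes were called. Of 8 genes for its partners and modifying enzymes, among them the protease Zmpste24 and the palmitoyltransferase Zdhhc20, 1 was called in any pairwise comparison, Bsg (basigin, an IFITM-associated surface protein) at 1.41 ± 0.124 in male 5XFAD CIH against WT CIH (SE; adjusted p = 5.24e-07). Of the 5 measured gamma-secretase genes, Psenen was called higher (1.08 ± 0.184, SE) and Aph1b lower (-1.04) in that comparison, and neither in another. Psenen of WT males had -0.71 ± 0.119 with CIH (SE; adjusted p = 7.27e-04), under the fold threshold. Among family relatives, Ifitm10 averaged 41.4 CPM in females and 26.4 CPM in males and was called in no pairwise comparison.

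Genes with the pattern most like each member were taken as those with the highest smaller r of the 2 sexes over 19 female and 20 male libraries. For Ifitm3 they were Bst2 (0.976), Ifi27l2a (0.964), Ybx1 (0.963), Tspo (0.958) and H2-T22 (0.957). For Ifitm2 they were Fxyd5 (0.920), Cox5a (0.916), Chchd2 (0.915), Crip1 (0.913) and Metrnl (0.910). Ifitm6 was followed most closely by Pglyrp1 (0.869), Ltb4r1 (0.836), S100a9 (0.835), S100a8 (0.822) and Retnlg (0.800). For Ifitm1 they were Hp (0.772), Slpi (0.740), Gda (0.737), Cxcr2 (0.708) and S100a8 (0.695). After group means were taken off, Bst2 (0.929), Lgals3 (0.921), Pglyrp1 (0.817) and Slpi (0.781) came first for Ifitm3, Ifitm2, Ifitm6 and Ifitm1.

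The genes around the cluster were called in 1 of the 8 pairwise comparisons. Within 100 kb of a member there were 20 other genes, of which 7 to 9 were tested in a comparison. In male WT mice none of 7 was called with CIH, and their log2 fold changes were -0.35 to 0.74. In the genotype comparison under CIH none of 7 was called in males (18.7% of all genes) and 2 of 8 in females (12.96% of all genes), B4galnt4 at 1.93 ± 0.531 (SE; adjusted p = 0.00798) and Sigirr at -1.06 ± 0.328 (SE; adjusted p = 0.0155). Pgghg, the tested gene nearest to Ifitm2, had 0.62 ± 0.102 in females and 0.78 ± 0.158 in males (SE), under the fold threshold. Ifitm1, which lies between Ifitm2 and Ifitm3, was called in neither of these comparisons.

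**Figure D5:**
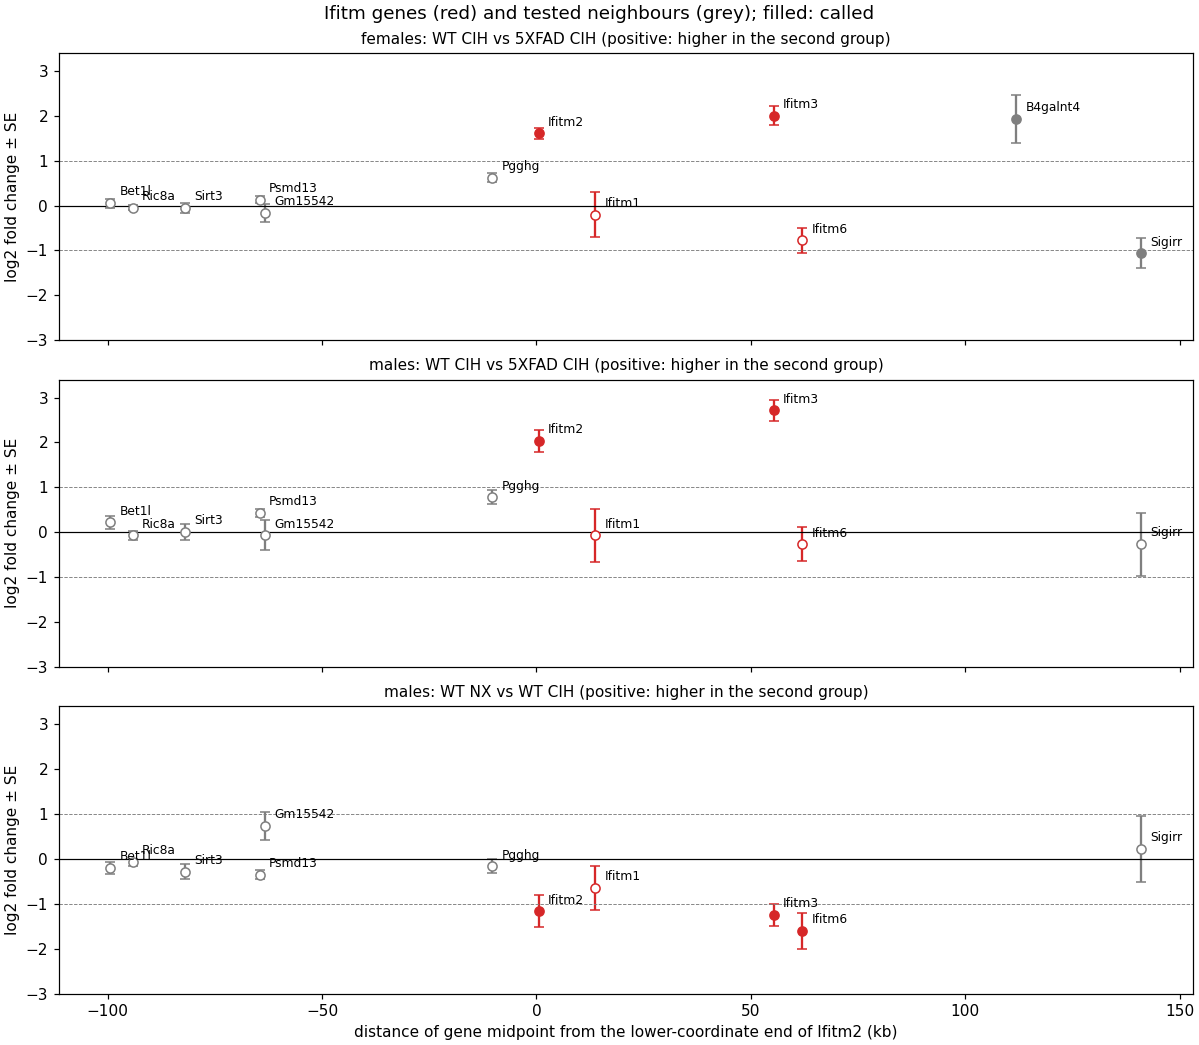
Log2 fold changes ± SE (y axis) of the 4 Ifitm genes (red) and the tested genes around them (grey) by the distance of the gene midpoint from the end of Ifitm2 with the lower coordinate, in kb (x axis), in 3 comparisons. Filled points were called. In both genotype comparisons under CIH, Ifitm2 and Ifitm3 were filled and above the upper dashed line while the open points, Ifitm1 and Ifitm6 among them, were below the fold threshold, and B4galnt4 in females was the only neighbour as high.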

How the data were processed

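Bulk mRNA of CD11b+ cells was measured in 39 libraries, called independent samples in the study's methods. Whether each came from 1 animal is not given, so that p-values measure the spread between these samples. The authors deposited 1 table per sex of raw counts per gene and FPKM (fragments scaled to gene length and library depth), after paired-end reads were aligned to GRCm38/mm10 with HISAT2 per the labels. The counting tool is not given in the sources used here. The female table pairs symbols without Ensembl IDs, so that symbols joined the tables (34342 shared). Libraries were scaled by TMM within each sex and are given as CPM. Genes with more than 1 CPM in at least 3 libraries of a fit were tested with edgeR 4.0.16 in R 4.3.3 (quasi-likelihood F test, Benjamini-Hochberg adjustment over all genes tested), with only the groups compared in the fit. SE is the absolute log2 fold change divided by the root of F. Called means an adjusted p below 0.05 and an absolute log2 fold change above 1. Differences between the tables were fitted on shared symbols. The fits were tested on simulated counts.

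The members and gene lists were chosen with earlier results of these data known. The text names the 4 members, of each list the 3 genes with the highest mean CPM or those called (up to 4), and the 5 genes most like each member. Alternatives were DESeq2 1.42.0, the likelihood ratio test, library size in place of TMM, no filter, one fit over the 4 groups of a sex, a block for the replicate number, and fits without each library. TMM factors were 0.874 to 1.155 in females and 0.775 to 1.197 in males. No pair of the 76 same-group library pairs agreed within sampling noise (chi-square per degree of freedom at least 4.59). Motifs and sequences came from RefSeq promoter windows of GRCm38.p6, which held all 4 members. Some genes of the lists are not reported here.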

Additional observations from a re-analysis of the deposited data

Results flagged for a closer look

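In 5 of 32 groups of 4 or 5 libraries, 1 library's CPM of a member lay far from the others by Dixon's test at 95%, and chance alone gives such a gap in about 1 of 20 groups. Ifitm1 was at 10.3 CPM in F WT NX 1, against at most 1.13 in the other 3. Ifitm1 was at 2.31 CPM in M WT CIH 3, against 0.749 to 1.13 in the other 4, and that library had the lowest neutrophil sum of its group (129 CPM). M 5XFAD NX 2 was high in Ifitm1 (8.56 CPM) and in Ifitm6 (21.5 CPM), and had the highest neutrophil sum of all libraries (1486 CPM). Ifitm6 was at 4.11 CPM in F 5XFAD NX 4, against 0.532 to 1.11 in the other 4.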

How the results depend on the processing

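Of 1109 values of single members under other settings, 1082 kept their direction where called and their side of the threshold, 16 gained a call and 11 lost one, and no called value changed sign. Both calls of the genotype comparison under CIH in each sex held under every setting run. For genotype in female NX mice, 0 members and 869 genes became 1 member by the likelihood ratio test, by DESeq2 and with all 4 groups in one fit (1330 genes), 3 members and 2072 genes without the 2 outlying libraries, and 0 to 2 members and 27 to 1880 genes without 1 library. For CIH in WT males, 3 members and 376 genes became 0 and 0 with all 4 groups in one fit, and 1 and 243 without the 2 neutrophil-rich libraries (a choice made after seeing the data). Gene counts there were 639 without a filter and 267 to 621 without 1 library (621 without M WT NX 1). In male NX mice the 1 member called for genotype ranged over 0 to 1 without 1 library. CIH in WT females gave 21 genes without a filter, and CIH in 5XFAD males 1 gene by the likelihood ratio test and 1 by DESeq2. The male interaction gave 175 genes by the likelihood ratio test, 381 by DESeq2 and 790 without a filter, where 2 members were called (Ifitm2 at 1.33, adjusted p = 0.00713, and Ifitm3 at 1.27, adjusted p = 2.22e-04, edgeR), and 0 to 478 without 1 library (478 without M 5XFAD NX 1). Between the tables, the genotype effect under NX gave 13 genes by the likelihood ratio test, 6 by DESeq2, 0 with library size alone and 0 to 4 without 1 library. Under CIH it gave 319 by the likelihood ratio test and 123 to 442 without 1 library. The CIH effect in WT gave 275 genes by the likelihood ratio test and 1 member by it and by DESeq2 (Ifitm6), with 112 to 295 genes and 0 to 1 members without 1 library. The CIH effect in 5XFAD gave 5 genes by the likelihood ratio test, 3 by DESeq2 and 0 to 1 without 1 library. The cause of these changes was not tested.

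Replicate numbers recur between groups, but 12 of 38 same-numbered pairs had correlated deviations above 0.1 (r from -0.494 to 0.349), so that the numbers were not taken to pair the samples. With the number as a block, the genotype comparison in female NX mice called 7 genes, that in male NX mice 0 members (Ifitm3 at 1.42, adjusted p = 0.136, edgeR), and the difference between sexes of the genotype effect under NX had 0 genes. In WT males under CIH, Ifitm2 then had -0.97 and fell under the fold threshold.

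Ifitm1 had 1 to 280 counts a library, and its fold changes are the least precise. In some fits without 1 female library it did not pass the count filter and has no value.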
